A study of Mus musculus with 20 samples.

Results

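The granzymes and the cytotoxic granule genes that accompany them were followed in tumours grown from 4T1, a mouse mammary carcinoma cell line, in lung metastases and in the primary tumours of the same mice. A list of 10 symbols defined the group: the granzyme genes Gzma, Gzmb, Gzmc, Gzmd, Gzme, Gzmf, Gzmg and Gzmk, the perforin gene Prf1 and the granule membrane gene Nkg7. All 10 were present, of 15465 named genes with values in these libraries. The genes were chosen by symbol, and after a comparison of the same 8 libraries had shown several of them among the largest differences between lung metastasis and primary tumour. Every difference of a granzyme or granule gene between those tissues is therefore a description of these libraries, and the adjusted p-values printed with them say only where each gene stood in a fit of the whole table.

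Granzymes are serine proteases that killer lymphocytes, the natural killer (NK) cells and cytotoxic T cells, keep in secretory granules. On contact with a target cell the granules are released, perforin opens the target membrane and the granzymes enter and cleave proteins inside it. Gzma and Gzmk encode trypsin-like granzymes, Gzmb encodes the granzyme that cleaves after aspartate and activates caspases, and Gzmc to Gzmg encode a set of rodent proteases beside Gzmb whose substrates are less well known. In mice, transcripts of that set are known from killer cells kept in culture with interleukin 2 and from NK cells of the pregnant uterus.

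The lung metastases and primary tumours carried the labels BC lung metastatic tumor and BC primary tumor, with BC for breast cancer. There were 4 libraries in each group, the genotype was given as 4T1 derived for all 8, and all were taken at 28 days from orthotopic models with no treatment stated. The titles give the mouse of each library, numbered 1 to 4 here, so that each mouse gave a lung metastasis and a primary tumour. All tumours derived from 1 cell line, and no label gives the age, sex or strain of the host mice. The series also holds 12 libraries of a pancreatic cancer model, which were not used because their columns do not follow the gene names.

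Every library was RNA of a whole piece of tissue. Depth was 15447918 to 28995834 reads, lowest in the lung metastasis of mouse 3. Values below are normalised read counts, read counts that the authors scaled to about 1000000 per library, and a single read was worth 0.0337 to 0.0676. Markers of lung epithelium summed to between 7364 and 33751 in the lung metastases, against 11.9 to 33.3 in the primary tumours, and neutrophil markers to 6814 to 25106 in the lung metastases, against 183 to 1025 in the primary tumours, with 8 of 8 lung and 7 of 8 neutrophil genes past the threshold used below. Over all genes tested, 9.13% were past it. Some of the lung genes passed the filter on low values only through the lung metastases, so they had to differ to be tested. The list named tumour epithelium (Krt8, Krt18, Krt19, Epcam and Cdh1) summed to 754 to 2980 in the lung metastases, against 1283 to 2601 in the primary tumours. These are general epithelial genes, so the sums do not measure tumour content, and what lung epithelium adds to them was not tested. What lung tissue and neutrophils add to the granule gene values was not tested. The primary tumour of mouse 2 stood apart from the other 3 in most granule genes, and the fold and log2 changes of the granule genes that rest on it are also given without it.

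The genes Gzmb to Gzmg lie side by side on chromosome 14. In the RefSeq annotation of GRCm38.p6 the order is Mcpt8, Ctsg, Gzme, Gzmd, Gzmg, Gzmn, Gzmf, Gzmc, Gzmb and Atp12a, with 7 protein-coding genes in the granzyme stretch. Gzma and Gzmk lie on chromosome 13, Prf1 on chromosome 10 and Nkg7 on chromosome 7. The 250 bases before the transcription start are printed next for the 5 genes Gzmc to Gzmg, and for Gzma and Gzmb as granzymes outside that set, because the data below divide along the same line. All are 5′ to 3′ on the minus strand, from RefSeq (GRCm38.p6, a later build than the mm9 of the deposited table), and capitals mark a run of 20 bases that Gzmc to Gzmg share.
Gzmc (chr14:56234658-56234907): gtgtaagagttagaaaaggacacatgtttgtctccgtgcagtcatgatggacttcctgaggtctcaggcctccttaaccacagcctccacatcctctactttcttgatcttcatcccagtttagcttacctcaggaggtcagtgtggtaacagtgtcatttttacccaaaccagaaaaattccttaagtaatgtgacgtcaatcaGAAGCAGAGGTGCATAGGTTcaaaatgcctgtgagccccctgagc
Gzmd (chr14:56132594-56132843): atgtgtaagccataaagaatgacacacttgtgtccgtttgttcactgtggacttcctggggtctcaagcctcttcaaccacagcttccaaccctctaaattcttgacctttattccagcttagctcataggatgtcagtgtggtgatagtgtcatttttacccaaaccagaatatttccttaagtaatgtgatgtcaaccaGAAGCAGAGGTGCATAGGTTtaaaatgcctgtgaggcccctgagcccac
Gzme (chr14:56120626-56120875): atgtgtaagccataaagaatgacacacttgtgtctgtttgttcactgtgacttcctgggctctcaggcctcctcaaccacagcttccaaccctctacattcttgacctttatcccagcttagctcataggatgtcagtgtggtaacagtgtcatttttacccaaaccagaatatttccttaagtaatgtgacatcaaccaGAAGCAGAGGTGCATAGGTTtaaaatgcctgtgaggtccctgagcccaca
Gzmf (chr14:56211408-56211657): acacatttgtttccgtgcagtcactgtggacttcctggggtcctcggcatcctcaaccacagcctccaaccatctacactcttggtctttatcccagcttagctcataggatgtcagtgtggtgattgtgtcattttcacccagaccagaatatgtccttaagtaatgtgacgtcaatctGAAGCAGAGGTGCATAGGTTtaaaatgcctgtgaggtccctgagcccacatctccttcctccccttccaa
Gzmg (chr14:56159580-56159829): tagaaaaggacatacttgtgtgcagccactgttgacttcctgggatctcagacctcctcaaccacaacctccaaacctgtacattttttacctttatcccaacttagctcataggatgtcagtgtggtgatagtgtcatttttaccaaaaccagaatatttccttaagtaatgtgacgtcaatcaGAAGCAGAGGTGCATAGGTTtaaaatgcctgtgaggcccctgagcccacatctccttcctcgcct
Gzma (chr13:113100982-113101231): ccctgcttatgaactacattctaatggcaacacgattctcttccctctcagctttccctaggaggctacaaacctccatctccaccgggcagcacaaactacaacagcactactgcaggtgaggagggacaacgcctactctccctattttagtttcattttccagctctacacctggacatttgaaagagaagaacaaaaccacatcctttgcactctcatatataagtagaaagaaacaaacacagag
Gzmb (chr14:56262335-56262584): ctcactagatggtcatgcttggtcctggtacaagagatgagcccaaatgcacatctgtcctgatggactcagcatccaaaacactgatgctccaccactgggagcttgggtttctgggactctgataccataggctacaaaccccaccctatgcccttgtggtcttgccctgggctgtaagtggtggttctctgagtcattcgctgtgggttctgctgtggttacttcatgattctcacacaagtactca

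The run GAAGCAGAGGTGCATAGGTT was found in 5 of the 32851 promoter windows of this length in the same table (0.0152%), and those were the windows of Gzmc, Gzmd, Gzme, Gzmf and Gzmg. It began 45 bases before the start in Gzmc, 49 in Gzmd, 50 in Gzme, 70 in Gzmf and 65 in Gzmg. Among these 5 windows the identity was 70.2% to 94.8% over 10 pairs, against 43% to 48.9% over the 15 pairs with Gzma, Gzmb or Gzmk. The windows were also searched on both strands for a handful of motifs chosen after the sequences had been seen. TGTGGT, the core recognised by RUNX factors, was in the windows of 9 of the 10 genes, all but Gzmk, and in 14% of all windows. TGACGTCA, the cyclic AMP response element, was in Gzmc, Gzmf and Gzmg and in 1.55% of all windows; in these 3 genes it lay just before the shared run. TGANTCA, the AP-1 motif, was in the window of Gzmb alone of the 10 and in 6.75% of all windows. AGGTGTGA, a T-box motif (1.12% of all windows), and TTCNNNGAA, a STAT motif (7.02%), were each found in Nkg7 alone of the 10, and TATAAA (12.4%) in none. A match is a description of the letters, and binding was not measured.

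The coding sequences of Gzmc to Gzmg are close copies. Pairwise identity was 71.6% to 93.3% among the 5 and 47.4% to 76.3% between them and Gzma, Gzmb or Gzmk. The highest value, 93.3%, was between Gzmd and Gzme, and the 76.3% was between Gzmb and Gzmc. The first 90 coding bases show how near the copies are. Capitals mark bases that differ from Gzmd in the GENCODE M21 transcripts, 10 in Gzmc, 3 in Gzme, 5 in Gzmf and 1 in Gzmg.
Gzmd: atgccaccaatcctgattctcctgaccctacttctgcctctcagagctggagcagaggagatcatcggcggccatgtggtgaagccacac
Gzmc: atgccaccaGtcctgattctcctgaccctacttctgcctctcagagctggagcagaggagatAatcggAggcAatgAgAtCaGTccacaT
Gzme: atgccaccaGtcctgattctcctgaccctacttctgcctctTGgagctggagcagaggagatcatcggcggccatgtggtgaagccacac
Gzmf: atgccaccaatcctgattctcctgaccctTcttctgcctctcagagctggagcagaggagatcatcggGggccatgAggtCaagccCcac
Gzmg: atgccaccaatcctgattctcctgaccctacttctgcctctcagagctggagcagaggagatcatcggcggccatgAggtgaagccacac

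This closeness bears on the counts. Of the windows of 50 bases in each transcript, 21.9% in Gzmd, 20.6% in Gzme, 19.4% in Gzmf and 19.8% in Gzmg were identical to a window of another gene, and 4.14% in Gzmc. The corresponding share was 0% in Gzma, Gzmb, Gzmk, Prf1 and Nkg7. How reads that match several genes were counted is not given in the sources used here, so the separate values of Gzmd, Gzme, Gzmf and Gzmg are uncertain, and their sum is given as well. In Gzmf, 12.1% of windows matched Gm4022, a predicted gene.

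Gzmc, Gzmd, Gzme, Gzmf and Gzmg were low or undetected in the lung metastases and present in every primary tumour. Gzmg had 1.74, 0.747, 0.541 and 0 in the lung metastases of mice 1 to 4, against 5.72, 112, 19.2 and 13.5 in their primary tumours. Every metastasis lay below every primary tumour, and the primary tumour of mouse 2 held 74.5% of the primary tumour sum. Gzmg averaged 0.757 ± 0.727 in lung metastases, against 37.7 ± 50 in primary tumours (SD, n = 4 each), 49.8-fold higher in primary tumours, and 16.9-fold without the primary tumour of mouse 2, where the other 3 averaged 12.8. On the log2(value + 1) scale, which understates the change of low genes, it fell by 3.72 (SE 0.73, limma adjusted p = 0.0101), the second lowest change of 14003 genes tested. In these bulk libraries fewer cells of a type and less RNA per cell cannot be told apart.

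**Figure D1:**
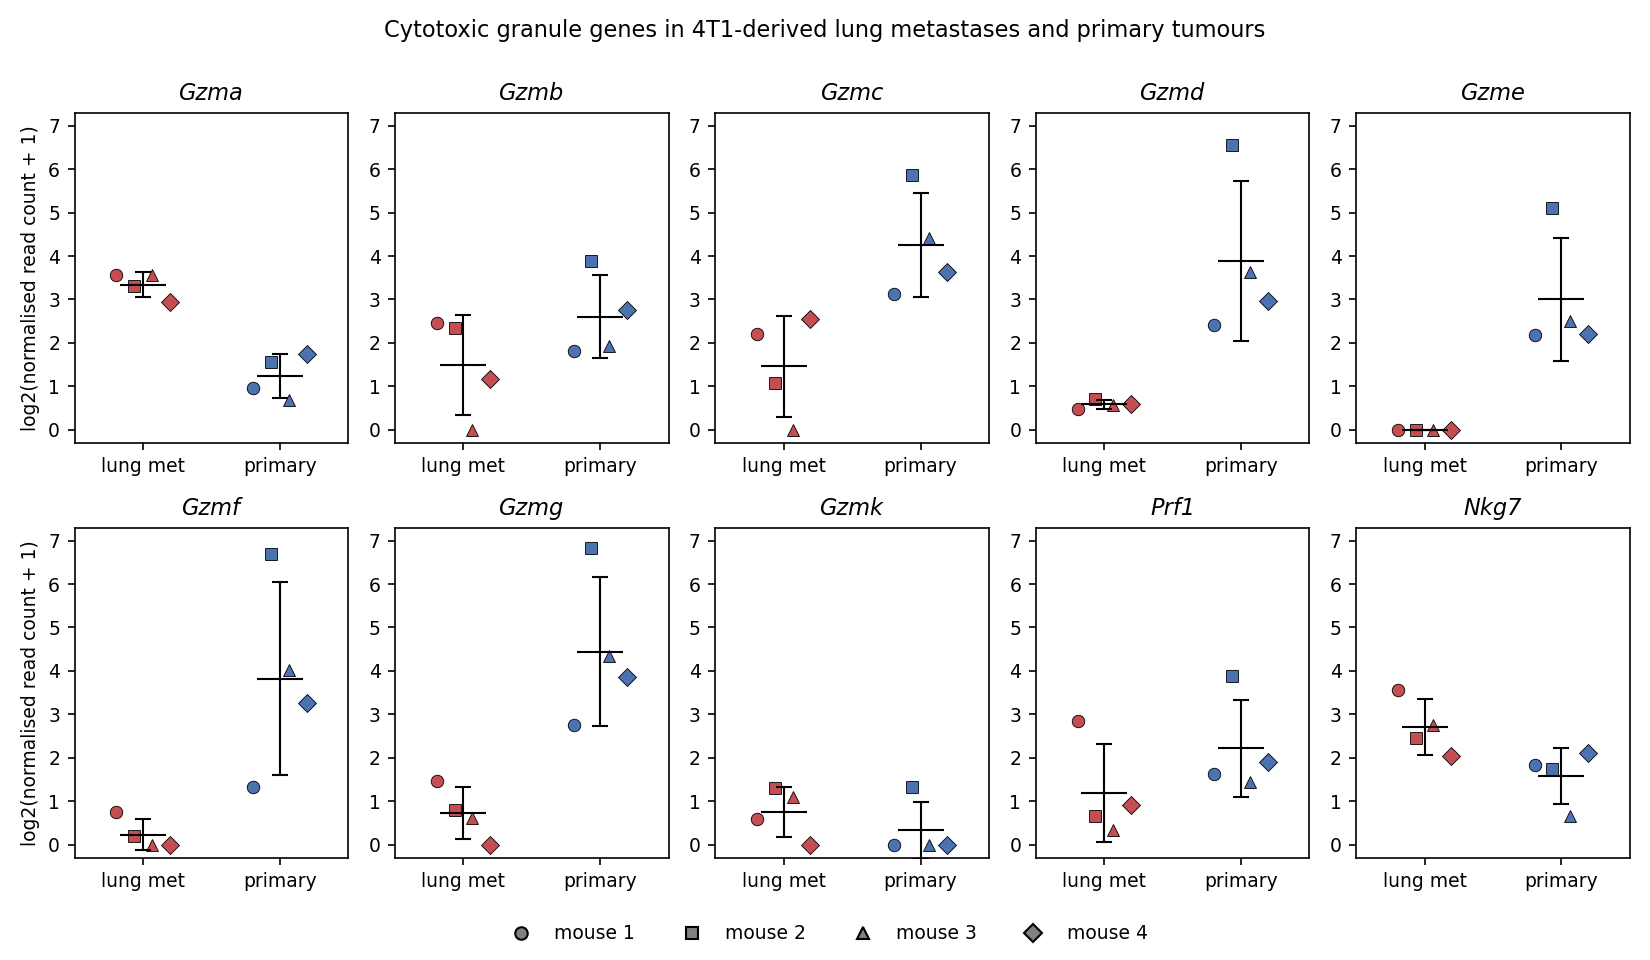
Normalised read counts of the 10 genes on a log2(value + 1) axis, with each library as a point shaped by mouse (lung metastases left, primary tumours right) and the mean with SD in black. Points of Gzmc to Gzmg stand lower in the lung metastases, those of Gzma higher, and the square of mouse 2 is the top primary tumour point in 8 of the 10 panels.

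Gzmf had 0.672, 0.142, 0 and 0 in the lung metastases of mice 1 to 4, against 1.51, 101.8, 15.3 and 8.59 in the primary tumours. The nearest values of the groups were both from mouse 1, and the groups did not overlap. Its means were 0.204 ± 0.319 in lung metastases, against 31.8 ± 47.0 in primary tumours (SD, n = 4 each), with a log2 change of -3.59 (SE 0.886, limma adjusted p = 0.0297). It missed the threshold without the lung metastasis of mouse 1, 2 or 4 or the primary tumour of mouse 3 or 4 (log2 change -3.78 to -3.51, adjusted p = 0.0513 to 0.081). Gzmd had 0.395, 0.640, 0.473 and 0.504 in the lung metastases, against 4.33, 92.9, 11.5 and 6.83 in the primary tumours. The 4 metastases lay within a narrow range at 7 to 18 reads each, whereas the primary tumours spanned over an order of magnitude. The log2 change of Gzmd was -3.31 (SE 0.74, limma adjusted p = 0.0186), and without the lung metastasis of mouse 1 it was -3.27 (adjusted p = 0.0541).

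Gzme had 0 reads in each of the 4 lung metastases, against 3.54, 33.4, 4.69 and 3.63 in the primary tumours, 1177 reads in all. Against a floor of 3 reads per library it was at least 81.6-fold lower in lung metastases, and at least 28.5-fold lower without the primary tumour of mouse 2. Its log2 change was -3.0 (SE 0.593, limma adjusted p = 0.0105), a value that depends on the pseudocount. Gzmc was the member of the set with the most reads left in the lung metastases, at 3.64, 1.10, 0 and 4.83, against 7.71, 57.3, 20.2 and 11.3 in the primary tumours. The groups did not overlap, but the gap was narrow between the metastasis of mouse 4 and the primary tumour of mouse 1. Gzmc averaged 2.39 ± 2.23 in lung metastases, against 24.1 ± 22.8 in primary tumours (SD, n = 4 each), with a log2 change of -2.80 (SE 0.672, limma adjusted p = 0.0268). The call was lost with the mouse as a block (adjusted p = 0.0505), with edgeR on the recovered reads (0.0859) and without the lung metastasis of mouse 2 (0.071) or the primary tumour of mouse 2 (0.057), 3 (0.0738) or 4 (0.0531).

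The means of the primary tumours rested on mouse 2. Its primary tumour held 59.4% of the primary tumour sum of Gzmc, 80.4% of Gzmd, 73.8% of Gzme and 80.1% of Gzmf. The 5 genes summed to 6.44, 2.63, 1.01 and 5.34 in the lung metastases of mice 1 to 4, against 22.8, 397.7, 70.8 and 43.9 in the primary tumours. Each of the other 3 primary tumours also lay above every metastasis. Without the primary tumour of mouse 2 the log2 change was -2.93 for Gzmg (limma adjusted p = 0.00601), -2.64 for Gzmf (0.0267), -2.42 for Gzmd (0.00411), -2.30 for Gzme (0.00234) and -2.26 for Gzmc (0.057). Without both libraries of mouse 2, Gzmf was no longer past the threshold (-2.62, adjusted p = 0.0673), nor was Gzmc (-2.13, adjusted p = 0.129).

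Within mice, Gzmc to Gzmg were lower in the lung metastasis of all 4. The difference on the log2(value + 1) scale ran between -6.49 and -4.79 for the 5 genes in mouse 2. In mouse 1 it was smaller, -0.909 for Gzmc, -1.93 for Gzmd, -2.18 for Gzme, -0.586 for Gzmf and -1.29 for Gzmg. Mouse 1 had the lowest primary tumour values of Gzmc, Gzmd, Gzme, Gzmf and Gzmg, and the highest metastasis values of Gzmf and Gzmg.

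**Figure D2:**
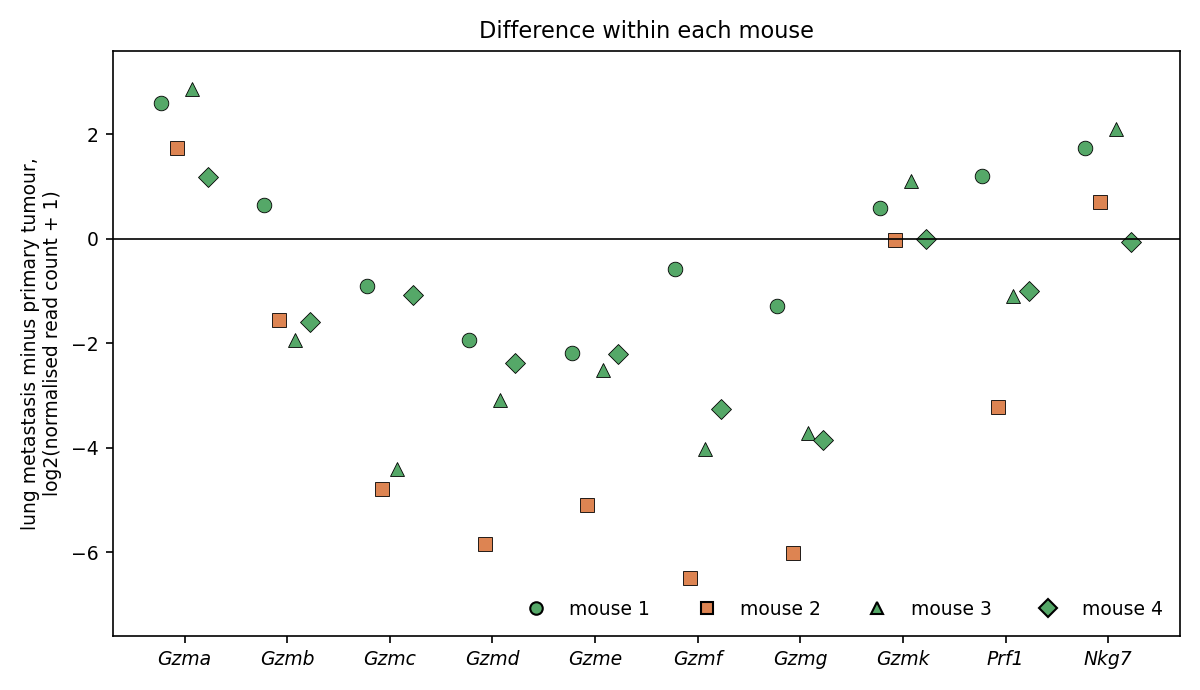
Lung metastasis minus primary tumour within each mouse, on the log2(normalised read count + 1) scale, for the 10 genes, with mouse 2 in orange. All points of Gzmc to Gzmg lie below 0, at -6.49 to -0.586, and all points of Gzma above it, at 1.18 to 2.87, while Gzmb, Prf1, Nkg7 and Gzmk have mice on or on both sides of 0.

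Gzma went the other way from the genes beside Gzmb. It had 10.9, 8.93, 10.7 and 6.64 in the lung metastases of mice 1 to 4, against 0.954, 1.97, 0.607 and 2.36 in the primary tumours. Every metastasis was above every primary tumour, and the primary tumours held 18 to 67 reads each. Gzma averaged 9.30 ± 1.98 in lung metastases, against 1.47 ± 0.828 in primary tumours (SD, n = 4 each), 6.31-fold higher, and its log2 change was 2.10 (SE 0.33, limma adjusted p = 0.00296). The difference was 1.74 on the log2 scale in mouse 2, between the 1.18 of mouse 4 and the 2.87 of mouse 3.

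Gzmk, the other trypsin-like granzyme on chromosome 13, was near the limit of detection. It had 0.514, 1.46, 1.15 and 0 in the lung metastases, against 0, 1.5, 0 and 0 in the primary tumours. With 71 reads in lung metastases, against 38 in primary tumours, it did not reach 1 in 4 or more libraries and was not tested. Fitted with no filter on low values, its log2 change was 0.42 (SE 0.418, limma adjusted p = 0.578 over 15465 genes).

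Gzmb, Prf1 and Nkg7, the genes of the general killing machinery, had overlapping groups. Gzmb had 4.47, 4.06, 0 and 1.26 in the lung metastases, against 2.5, 13.8, 2.83 and 5.81 in the primary tumours. In mouse 1 the metastasis was the higher of the pair and in mice 2, 3 and 4 the primary tumour. The log2 change of Gzmb was -1.11 (SE 0.619, limma adjusted p = 0.318), although its gene adjoins Gzmc, and -0.68 without the primary tumour of mouse 2 (adjusted p = 0.57). Prf1 had 6.17, 0.569, 0.270 and 0.882 in the lung metastases, against 2.11, 13.7, 1.72 and 2.75 in the primary tumours. The high values were those of the metastasis of mouse 1 and the primary tumour of mouse 2, and the other 6 libraries stood at 2.75 or below. The log2 change of Prf1 was -1.03 (SE 0.655, limma adjusted p = 0.383), and -0.47 without the primary tumour of mouse 2 (adjusted p = 0.687).

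Nkg7, a membrane protein of cytotoxic granules that takes part in their release, had 10.8, 4.45, 5.75 and 3.11 in the lung metastases, against 2.54, 2.33, 0.573 and 3.31 in the primary tumours. The groups met only through mouse 4, whose metastasis was slightly lower than its primary tumour. Its means were 6.02 ± 3.36 in lung metastases, against 2.19 ± 1.16 in primary tumours (SD, n = 4 each), and its log2 change was 1.12 (SE 0.423, limma adjusted p = 0.141). Nkg7 thus had a positive change that missed the threshold, where Gzmb and Prf1 had negative ones that missed it.

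Of the 9 genes tested, 1 was higher in lung metastases and 5 were lower at a limma adjusted p under 0.05, against 7.18% and 1.96% of the 14003 genes tested (9.13% in either direction). On the recovered reads edgeR called 1 higher and 4 lower, against 7.5% of all genes in either direction and 1.48% lower. The groups did not overlap for 6 of the 9, with 5 lower in lung metastases, against 17.9% of all genes, 7.56% lower and 10.4% higher. Gzmd, Gzme and Gzmf passed the filter only through the primary tumours, with no metastasis at a value of 1 or more, so they had to differ to be tested, and nothing is read from these counts. The median log2 change of the 9 was -2.80, also with Gzme at the bound set by its floor, and -0.06 over all genes. In the whole table Gzmg, Gzmf, Gzmd, Gzme and Gzmc ranked 2, 5, 6, 10 and 17 from the lowest change, and Gzma 595 from the highest.

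**Figure D3:**
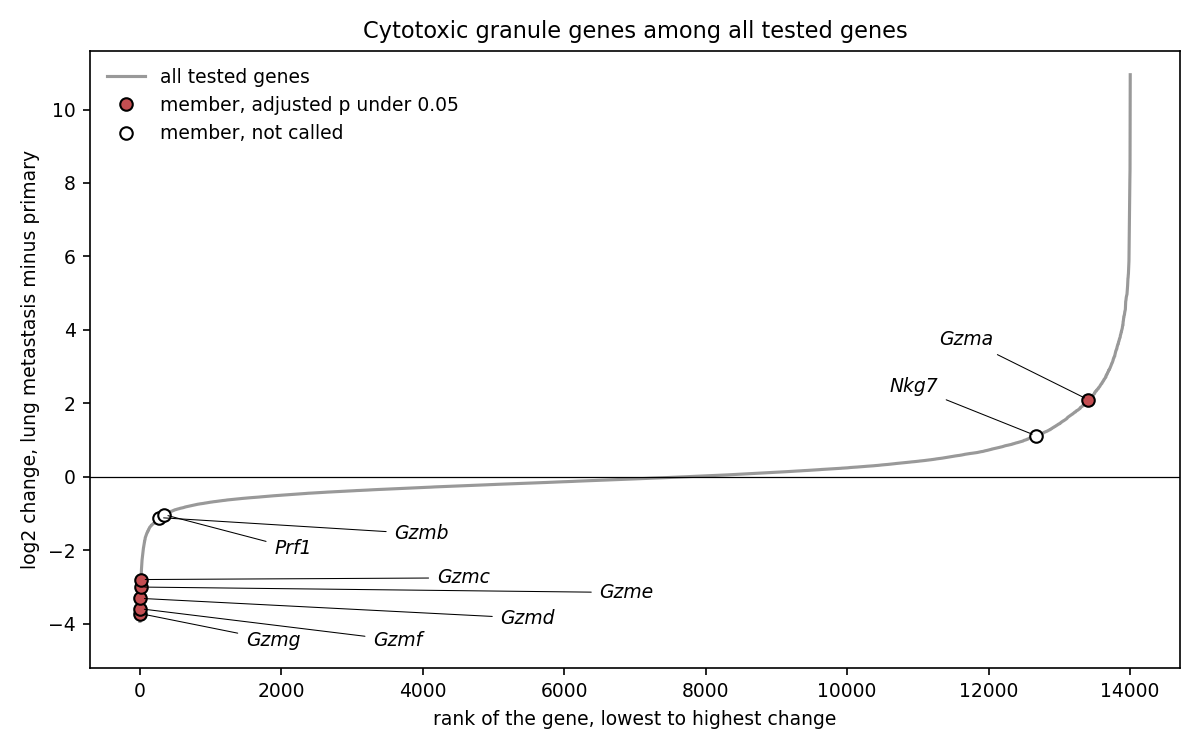
Log2 change between lung metastasis and primary tumour for the 14003 genes tested, ordered from lowest to highest, with the granule genes marked. Gzmc to Gzmg sit at the extreme left end at -3.72 to -2.80, Gzmb and Prf1 are open circles near -1, and Gzma and Nkg7 lie to the right at 2.10 and 1.12.

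The make-up of the granzyme reads differed between the tissues in every mouse. Of all reads of the 8 granzyme genes, Gzmc to Gzmg took 28.9% (25.3% to 32.8%), 15.4% (12.5% to 18.9%), 7.85% (4.82% to 12.6%) and 40.3% (35% to 45.8%) in the lung metastases of mice 1 to 4. In the primary tumours they took 86.8% (84.0% to 89.2%), 95.8% (95.4% to 96.2%), 95.4% (94.4% to 96.2%) and 84.3% (82.4% to 86.1%). Intervals are 95% Wilson intervals and cover counting error only. The share in the primary tumour of mouse 2 was less than a percentage point from that of mouse 3, although its total of 10523 granzyme reads was far above the 661 to 2203 of the other 3 primary tumours. Lung metastases had 191 to 564 granzyme reads.

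Gzma took 48.8%, 52.3%, 83.2% and 50.2% of the granzyme reads in the lung metastases, against 3.63%, 0.475%, 0.817% and 4.53% in the primary tumours. Gzmb took 20.0%, 23.8%, 0% and 9.52% in the lung metastases, against 9.53%, 3.34%, 3.81% and 11.2% in the primary tumours, with overlapping groups. The 0 of 191 reads in the metastasis of mouse 3 allows a Gzmb share of up to 1.57%. Gzmk took 8.90% or less in every library.

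**Figure D4:**
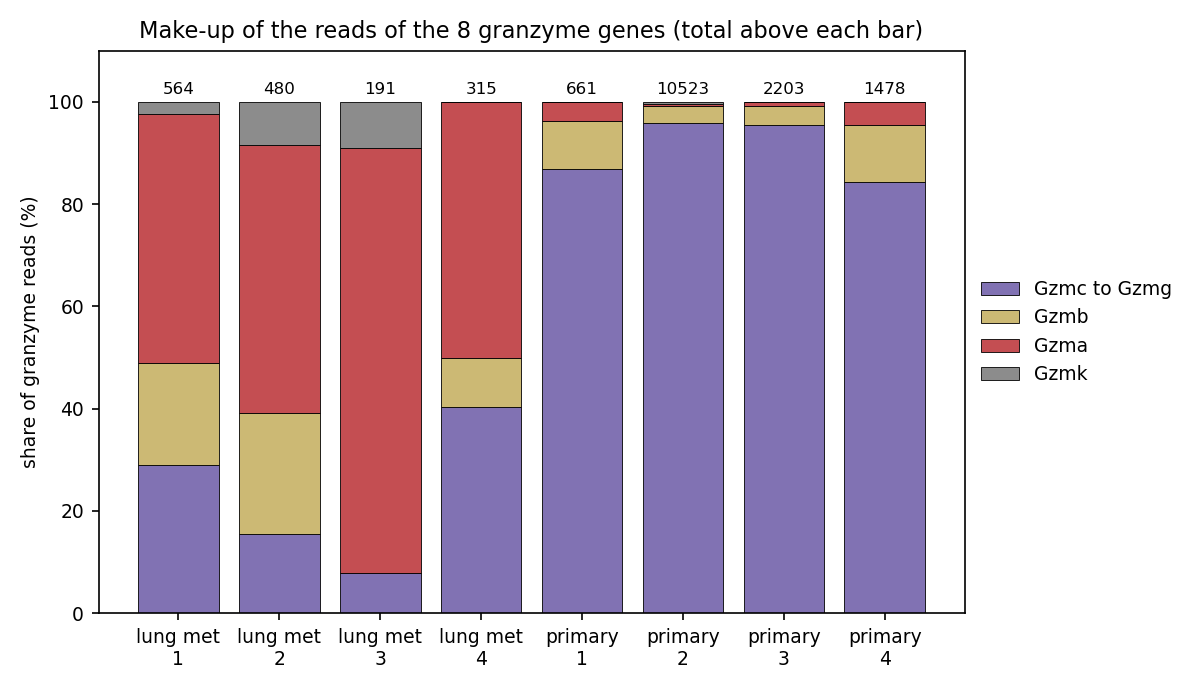
Share of the reads of the 8 granzyme genes taken by Gzmc to Gzmg, Gzmb, Gzma and Gzmk in each library, as stacked bars in percent, with the total of granzyme reads above each bar. Gzmc to Gzmg fill 7.85% to 40.3% of the 4 lung metastasis bars, where Gzma takes 48.8% to 83.2%, against 84.3% to 95.8% of the 4 primary tumour bars.

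Within the set of 5, the mixture also varied. Gzmc made up 56.4%, 41.9%, 0% and 90.6% of the reads of the set in the lung metastases of mice 1 to 4, from 163, 74, 15 and 127 reads. In the primary tumours it made up 33.8%, 14.4%, 28.5% and 25.8%, from 574, 10084, 2101 and 1246 reads. The metastasis of mouse 4 held 115 reads of Gzmc, 12 of Gzmd and none of Gzme, Gzmf or Gzmg. Gzmg was the steadiest part of the mixture in the primary tumours, at 25.1%, 28.2%, 27.1% and 30.8%, while Gzmf ranged between 6.62% in mouse 1 and 25.6% in mouse 2.

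To order levels between genes, values were divided by the length of the longest GENCODE M21 protein-coding transcript. In lung metastases the values per kilobase were 9.33 ± 1.99 for Gzma, 6.84 ± 3.81 for Nkg7, 2.68 ± 2.49 for Gzmc, 1.70 ± 1.51 for Gzmb, 0.833 ± 0.800 for Gzmg and 0.797 ± 1.14 for Prf1 (SD, n = 4 each). Gzmk at 0.599 ± 0.500, Gzmd at 0.522 ± 0.106, Gzmf at 0.222 ± 0.348 and Gzme at 0 followed. The range of each gene overlapped that of the next. Such an overlap does not compare genes within a library, and differences between neighbours in this order were not tested.

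In primary tumours the order was led by the set beside Gzmb, with values per kilobase of 41.5 ± 55.1 for Gzmg, 34.6 ± 51.2 for Gzmf, 30 ± 44.4 for Gzmd, 27.0 ± 25.5 for Gzmc and 12.3 ± 16.1 for Gzme (SD, n = 4 each). Gzmb at 4.35 ± 3.67, Nkg7 at 2.48 ± 1.31, Prf1 at 2.05 ± 2.33, Gzma at 1.48 ± 0.831 and Gzmk at 0.287 ± 0.575 followed. Here too the range of each gene overlapped that of its neighbours, differences between them within a library were not tested, and mouse 2 set much of the SD of the leading genes.

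The genes outside the group whose profiles over the 8 libraries were nearest to it were found by the root mean square difference of centred log2(value + 1) profiles. Nearest to the mean of Gzmc to Gzmg were Cdh13 (0.68), Rgs5 (0.70), Igfbp3 (0.77), Clca5 (0.78) and Hoxd8 (0.81), where the profile itself had an SD of 2.07. Rgs5, a regulator of G-protein signalling found in pericytes, averaged 3.73 ± 1.11 in lung metastases, against 78.7 ± 46.9 in primary tumours, with 146 in the primary tumour of mouse 2. Nearest to Prf1 were Csf3 (0.37), Serpine2 (0.38), Tnip3 (0.41), Rgs16 (0.49) and Angpt2 (0.51), against a profile SD of 1.18. Csf3, which encodes granulocyte colony-stimulating factor, averaged 39.6 ± 39.4 in lung metastases, against 67.5 ± 78.6 in primary tumours, with 185 in the primary tumour of mouse 2. Nearest to Gzma were Slc1a1 (0.28), Bhlhb9 (0.30), Ppp1r3a (0.31), Gap43 (0.31) and Zbtb7c (0.33), against a profile SD of 1.19.

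None of the genes that store and prepare granule contents passed the test, where 9.13% of all genes tested did. A list this short could hold none at that share, so nothing is read from the count. Of 10 such genes, which include the proteoglycan serglycin, the granzyme-activating cathepsin C and the granule membrane proteins, 0 were past the threshold with limma or with edgeR, and the median log2 change was -0.17. Ctsw, a cathepsin of killer lymphocytes, averaged 3.99 ± 0.998 in lung metastases, against 1.52 ± 0.713 in primary tumours (SD, n = 4 each), with a log2 change of 1.01 (limma adjusted p = 0.0793), and DESeq2 alone called it (0.0338). Its unadjusted limma p of 0.00932 was the smallest of the list and the only one under 0.05. Ctsl, the broadly expressed lysosomal cathepsin L, had a log2 change of -1.03, near that of Ctsw in size and opposite in sign (limma adjusted p = 0.264). It averaged 1036 ± 574 in lung metastases, against 1756 ± 346 in primary tumours (SD, n = 4 each), was lower in the metastasis of all 4 mice, and overlapped between groups. Cst7, a cystatin that inhibits lysosomal cathepsins, had a log2 change of 0.59 (limma adjusted p = 0.338).

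Among 8 tested genes of granule docking and fusion, 2 were higher in lung metastases and none lower, with a median of 0.45. Over all genes tested, 7.18% were higher. Rab27a, the GTPase that docks lytic granules, had 55.4, 42.8, 155 and 22.4 in the lung metastases of mice 1 to 4, against 9.93, 11.7, 11.9 and 6.80 in the primary tumours. Stx11, a syntaxin needed for granule fusion, had 32.8, 26.6, 65.7 and 15.4 in the lung metastases, against 4.65, 12.7, 3.24 and 5.28 in the primary tumours. Neither overlapped between groups, and both were highest in the metastasis of mouse 3, which also had the highest neutrophil and lung marker sums of the 8. The log2 changes were 2.33 for Rab27a (SE 0.481, limma adjusted p = 0.0128) and 2.24 for Stx11 (SE 0.464, limma adjusted p = 0.0132). Without mouse 2 the change of Rab27a was 2.52 and missed the threshold (adjusted p = 0.056). Both genes are also active in neutrophils and other cells, and what those cells add here was not tested.

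Of 3 tested serpins that inhibit granzymes, Serpinb6b and Serpinb9 were higher in lung metastases, where 7.18% of all genes tested were. Serpinb6a, the most abundant, was not called (log2 change -0.43, limma adjusted p = 0.537). It averaged 304 ± 158 in lung metastases, against 369 ± 79.2 in primary tumours (SD, n = 4 each). The list summed to 252 to 573 in lung metastases, against 295 to 489 in primary tumours, so the sums overlapped. Serpinb6b, which inhibits granzyme A in mice, had 29.0, 44.8, 47.8 and 27.1 in the lung metastases, against 6.72, 4.73, 4.65 and 9.12 in the primary tumours. The groups were well apart, and the log2 change was 2.38 (SE 0.29, limma adjusted p = 0.00068). Serpinb9, the mouse inhibitor of granzyme B, averaged 69.6 ± 17.2 in lung metastases, against 34.7 ± 8.02 in primary tumours (SD, n = 4 each), a log2 change of 0.97 (SE 0.24, limma adjusted p = 0.0294). With the mouse as a block its adjusted p was 0.0719, and without mouse 2 its log2 change was 0.98 (adjusted p = 0.114). It also missed the threshold without the lung metastasis of mouse 1 or 2 or the primary tumour of mouse 1 or 3 (log2 change 0.84 to 0.97, adjusted p = 0.078 to 0.0931).

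The other proteases of the same families gave 1 call in 6 tested genes, against 9.13% of all genes tested, and their median was 0.02. Ctsg, the gene of cathepsin G just beyond Gzme on chromosome 14, had 10.8, 8.82, 27.8 and 4.45 in the lung metastases, against 2.38, 2.60, 0.978 and 0 in the primary tumours. Its log2 change was 2.39 (SE 0.554, limma adjusted p = 0.0222), opposite in sign to Gzmc to Gzmg beside it. The call was lost with edgeR (adjusted p = 0.104), without mouse 2 (log2 change 2.70, 0.0627), and without the lung metastasis of mouse 1 or the primary tumour of mouse 3 or 4 (2.01 to 2.38, 0.0606 to 0.0695). Cathepsin G is a protease of neutrophil granules, and its part of the neutrophil signal in these libraries was not tested. Mcpt8, a protease of basophils whose gene lies next to Ctsg, averaged 9.79 ± 3.06 in lung metastases, against 3.55 ± 2.44 in primary tumours (SD, n = 4 each), with a log2 change of 1.36 (limma adjusted p = 0.0774). Cma1, a mast cell chymase, averaged 0.694 ± 0.71 in lung metastases, against 1.67 ± 0.763 in primary tumours, with a log2 change of -0.70 (limma adjusted p = 0.304). Gzmm, the remaining granzyme with a row, averaged 1.86 ± 1.02 in lung metastases, against 0.787 ± 0.745 in primary tumours (limma adjusted p = 0.327), and Gzmn was not analysed here.

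Some markers of the cells that carry cytotoxic granules passed the test, where 9.13% of all genes tested did in either direction. Of 9 tested NK receptor genes, Cd244 was higher and none lower, with a median of 0.37, and the 11 genes of the list summed to 210 to 436 in lung metastases, against 196 to 240 in primary tumours. Tyrobp, an adaptor of activating receptors that myeloid cells also express, made up 67.4% to 77.7% of that sum in lung metastases, against 69.5% to 83.2% in primary tumours. Tyrobp averaged 218 ± 62.6 in lung metastases, against 171 ± 26.0 in primary tumours (limma adjusted p = 0.419), and the other 10 genes summed to 46.8 to 130 in lung metastases, against 38.2 to 59.8 in primary tumours. Cd244, a receptor of NK cells and some T cells, averaged 24.7 ± 16.6 in lung metastases, against 6.09 ± 2.04 in primary tumours (log2 change 1.70, SE 0.409, limma adjusted p = 0.027). It missed the threshold without the lung metastasis of mouse 1 or the primary tumour of mouse 1, 2 or 4 (log2 change 1.56 to 1.73, adjusted p = 0.0651 to 0.0785). Klrd1, the NK receptor subunit CD94, averaged 4.35 ± 3.05 in lung metastases, against 1.52 ± 1.02 in primary tumours (limma adjusted p = 0.218), and Klrk1, the activating receptor NKG2D, 6.98 ± 5.95 in lung metastases, against 3.43 ± 2.37 in primary tumours (adjusted p = 0.425).

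Of 12 T cell genes tested, 1 was higher and 1 lower in lung metastases, against 7.18% and 1.96% of all genes tested. The median was 0.86, and the list summed to 47.0 to 101 in lung metastases, against 65.3 to 97.9 in primary tumours. Cd3d, a chain of the T cell receptor complex, averaged 11.3 ± 5.36 in lung metastases, against 2.20 ± 0.929 in primary tumours (log2 change 1.89, SE 0.372, limma adjusted p = 0.0103). Thy1, a surface protein of T cells that fibroblasts also carry, averaged 11.5 ± 2.70 in lung metastases, against 57.8 ± 8.29 in primary tumours (log2 change -2.25, SE 0.216, limma adjusted p = 0.000187). Thy1 made up 14.7% to 26.4% of the list's sum in lung metastases, against 67% to 88.7% in primary tumours, and the other 11 genes summed to 34.6 to 86.5 in lung metastases, against 7.38 to 29.5 in primary tumours. Cd5, a surface receptor of T cells, averaged 3.12 ± 1.75 in lung metastases, against 0.671 ± 0.424 in primary tumours (log2 change 1.25, limma adjusted p = 0.0575). It was past the threshold with DESeq2 (adjusted p = 0.0107) and with array weights. Cd247, a signalling chain of the T cell receptor complex, had a log2 change of 1.18 (limma adjusted p = 0.0813). DESeq2 (adjusted p = 0.0453) and array weights called it. Cd247 passed the filter only through the lung metastases, with 0.749 at most in primary tumours. It had to differ to be tested, and nothing is read from its change or from its part in the median. The primary tumour of mouse 2, with the highest Gzmc to Gzmg, had 48.1 of Thy1, the lowest of the 4, and 2.05 of Cd3d, within the range of the other 3. Of the primary tumours it was also the highest in Cd4 (3.16), Cd5 (1.22) and Cd247 (0.749). The remaining genes of the list were highest in the primary tumour of mouse 1 or 4. Cd8a, Cd8b1 and Tbx21 were picked after their values were seen: Cd8a had 10.4, 2.45, 2.77 and 2.10 in the lung metastases, against 1.71, 1.26, 0 and 1.55 in the primary tumours (log2 change 1.22, limma adjusted p = 0.166). Cd8b1, the partner chain of Cd8a, had 3.99, 1.32, 1.01 and 0 in the lung metastases, against 1.47, 1.38, 0.405 and 0.528 in the primary tumours (log2 change 0.22, limma adjusted p = 0.815). Its groups overlapped, and the metastasis was the higher in 2 of 4 mice. Tbx21, the transcription factor T-bet of killer lymphocytes, had 2.49, 1.03, 0.744 and 0 in the lung metastases, against 0, 0, 0 and 0.211 in the primary tumours. The lung metastasis of mouse 1 was highest in Cd8a, Cd8b1, Tbx21, Prf1, Gzmb and Nkg7 among the lung metastases. What the number of killer cells adds to the granule gene values was not tested.

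The tested transcription factors and cytokines that drive the granule programme showed no call, where 9.13% of all genes tested were called. Lists this short could hold none at that share, so nothing is read from the counts. Of 6 tested factors of the cytotoxic lineage, 0 were past the threshold with limma or with edgeR, and 1, Stat4, had an unadjusted limma p under 0.05 (0.0452); without the lung metastasis of mouse 4 its adjusted p was 0.0343. Eomes averaged 2.67 ± 1.15 in lung metastases, against 4.32 ± 1.96 in primary tumours (limma adjusted p = 0.445), and Runx3 16.3 ± 5.41 in lung metastases, against 20.4 ± 4.65 in primary tumours (adjusted p = 0.522). Of 6 tested genes of the interleukin 2 and 15 axis, 0 were past the threshold with limma or with edgeR, and 1, Il2rg, had an unadjusted limma p under 0.05 (0.0318). Il2rb, the receptor chain shared by both cytokines, averaged 11.0 ± 4.33 in lung metastases, against 5.83 ± 3.52 in primary tumours (limma adjusted p = 0.245), and the shared chain Il2rg 14.3 ± 6.61 in lung metastases, against 7.01 ± 2.41 in primary tumours (adjusted p = 0.169). Tbx21, Il12a and Il27 were under the filter and not tested. Il12a averaged 1.19 ± 0.877 in lung metastases and had 0 reads in primary tumours. Il27 averaged 2.42 ± 1.68 in lung metastases, against 0.433 ± 0.374 in primary tumours, with overlapping groups. Il2 was not analysed here.

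**Figure D5:**
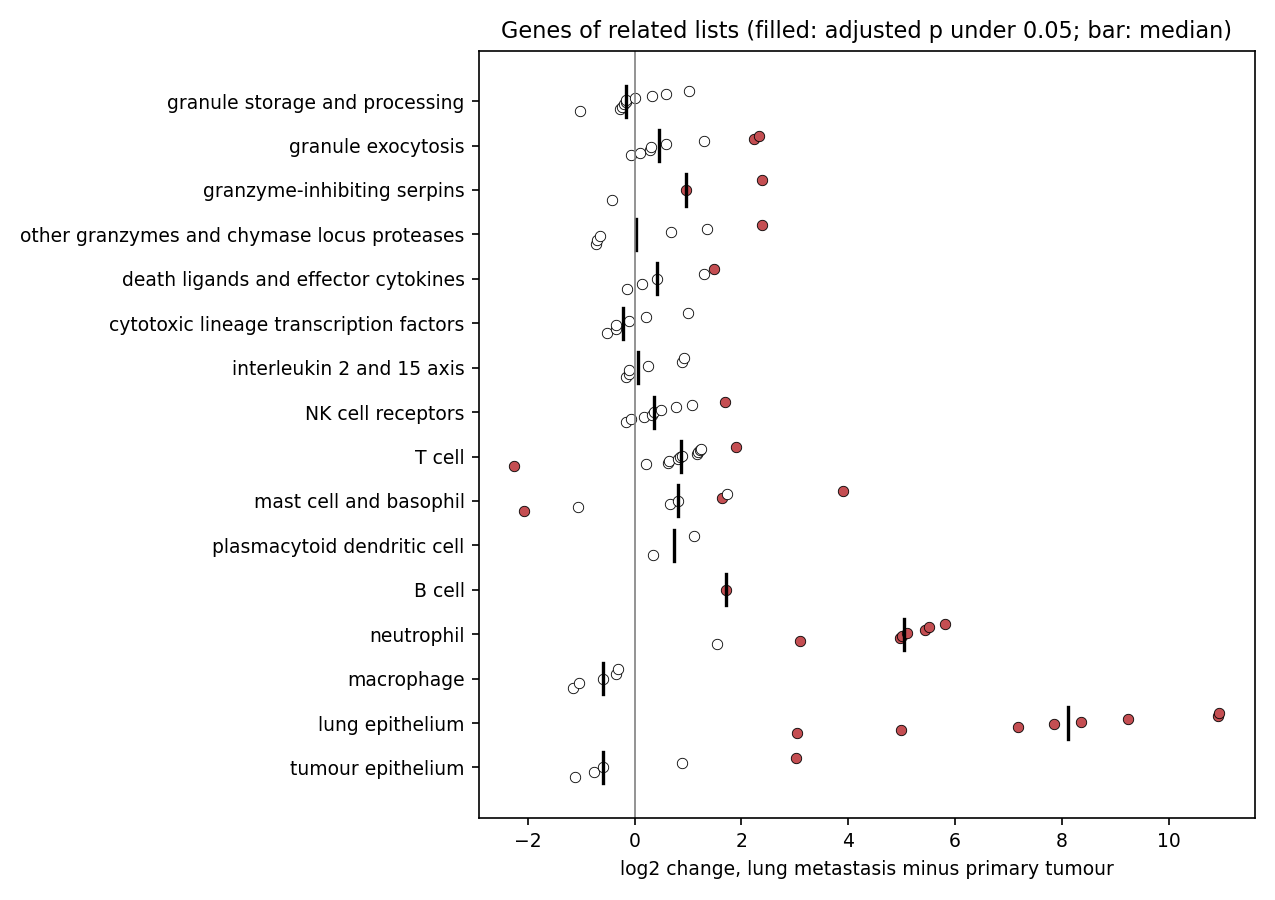
Log2 change between lung metastasis and primary tumour of each tested gene in 16 gene lists, with 1 row per list, filled points for genes with an adjusted p under 0.05 and a black bar at the median. Storage, transcription factor, interleukin and NK rows lie around 0, with medians of -0.17, -0.22, 0.07 and 0.37, while the lung epithelium and neutrophil rows lie far to the right, with medians of 8.11 and 5.05.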

How the data were processed

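RNA of bulk tissue was sequenced after RNeasy extraction and TruSeq library preparation, per the labels' protocols; a strand-marking kit is not named. The genome build was mm9, per the submitters' processing notes; aligner, counter and annotation: not given in the sources used here. The authors deposited signal values: in all 8 BC columns 100% of values were whole multiples of what 1 read is worth (tolerance 0.05 reads), so reads were recovered. The column totals ran between 962401 and 1044330, with a geometric mean of 998661. Plain CPM would total 1000000 in every column, so the values are not plain CPM, which the test plan had taken them for.

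The fit was limma 3.58.1 with an intensity trend (R 4.3.3) on log2(value + 1), without a block, over 14003 genes that reached 1 in 4 or more of the 8 libraries. Genes were called at a Benjamini-Hochberg adjusted p under 0.05. Of all genes tested, 9.13% were called, 7.18% higher and 1.96% lower in lung metastases. The test on recovered reads was edgeR 4.0.16 (1050 genes called) and DESeq2 1.42.0 was a further alternative. Leave-one-out fits kept the same genes. The limma fit was tested on simulated data. The titles give the mouse, so numbers pair libraries of the same animal; same-mouse deviations correlated at 0.10, -0.15, 0.03 and 0.01 in mice 1 to 4. The blocked value stands beside a result where it ends a call.

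The genes, lists, tests and naming rule were chosen with earlier results of these data known. All 10 granule genes are named, and of each list described up to 4 genes in order of p; Cd8a, Cd8b1, Tbx21 and Fasl were added after their values were seen, and Il18, Ccl3 and Lyst as genes with a library far from the others. Of the lists of neutrophils, macrophages, lung and tumour epithelium, B cells and plasmacytoid dendritic cells, counts and sums are given: of B cell genes 1 of 1 tested was higher, of plasmacytoid dendritic cell genes 0 of 2 and of macrophage genes 0 of 5 were past the threshold with limma, edgeR or DESeq2 (1 and 2 had an unadjusted limma p under 0.05), and of tumour epithelium genes 1 of 5 was higher. Alignment and plots used Python 3.11.15 with Biopython 1.88 and matplotlib 3.10.9; identity is matching columns over all alignment columns.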

Additional observations from a re-analysis of the deposited data

Results flagged for a closer look

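The granule genes, the first 4 genes by p in every list described, the genes picked after their values were seen, and Rgs5 and Csf3 were checked, in each group of 4 libraries, for a library far from the other 3. Of 109 such groups 22 had one. The check has a chance rate of about 1 in 20 only for independent values with a normal distribution. It was run on normalised read counts without a log, and some genes were picked after their values were seen. Several groups also had the same library apart, so the count of 22 is not compared with chance. In the primary tumour of mouse 2, Gzmd stood at 92.9 with the next primary tumour at 11.5, Gzme at 33.4 with the next at 4.69, Gzmf at 102 with the next at 15.3, and Gzmg at 112 with the next at 19.2. The same library stood apart in Gzmk (1.5, where the other 3 had 0), in Prf1 (13.7, next 2.75), in the chemokine gene Ccl3 (23.0, next 3.10), in Fasl (1.34, next 0.0674), in Csf3 (185, next 33.3) and in Hdc, which encodes histidine decarboxylase (41.3, next 6.48). It thus held 10 of the 22.

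The lung metastasis of mouse 1 stood apart in Prf1 (6.17, next 0.882), in Cd8a (10.4, next 2.77) and in the T cell receptor chain Cd247 (4.39, next 1.67). The lung metastasis of mouse 3, the library with the fewest reads, was the highest in Ctsw (5.48, next 3.61), Hdc (391, next 138) and Lyst, a regulator of lysosome traffic (244, next 30.3), and the lowest in Il18 (10.9, next 18.1). Stat4 was lowest in the lung metastasis of mouse 4 (1.09, next 4.8). The primary tumour of mouse 4 stood apart in Gzmm (1.90, next 0.473), Tbx21 (0.211, where the other 3 had 0) and Cd200r3 (0.845, next 0.0397). Klrd1 had 0 in the primary tumour of mouse 3, with the next at 1.91.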

How the results depend on the processing

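No granule gene changed direction under any alternative. Gzma and Gzmg kept their calls in 19 of 19 alternatives (adjusted p 1.3e-06 to 0.0226 for Gzma and 0.000407 to 0.0447 for Gzmg), and Gzmb, Prf1 and Nkg7 stayed uncalled in all of theirs (0.055 at the lowest, for Nkg7). Gzmc missed the threshold with a pseudocount of 0.1 (-3.88, adjusted p = 0.0621), the replicate block (-2.80, 0.0505), edgeR (-3.31, 0.0859) and without mouse 2 (-2.13, 0.129), an alternative chosen after seeing the data. With a pseudocount of 5, Gzmd (-1.90, 0.0884), Gzme (-1.36, 0.0792) and Gzmf (-2.01, 0.103) missed it, as did Gzmf without mouse 2 (-2.62, 0.0673). Leaving out 1 library gave -3.17 to -2.26 for Gzmc, with misses at -3.01 to -2.26 (without lung metastasis 2 or primary tumour 2, 3 or 4). It gave -3.80 to -2.42 for Gzmd, with a miss at -3.27 (without lung metastasis 1), and -4.42 to -2.64 for Gzmf, with misses at -3.78 to -3.51 (without lung metastasis 1, 2 or 4 or primary tumour 3 or 4). The cause was not tested.

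Of the granule genes 5 were called lower, against 2 with a pseudocount of 5, 3 without mouse 2 and 3 to 5 without 1 library. Over all genes, 1005 were higher and 274 lower. Array weights gave 1536 and 747, the replicate block 936 and 176, DESeq2 1468 and 517, the fit without mouse 2 628 and 110, and leaving out 1 library 627 to 1237 higher and 84 to 431 lower. The replicate block ended no other call of a granule gene.

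Counts called in the lists moved by over 1.5 times in 46 of 304 values. With array weights they were 2 for death ligands, 5 for T cell, 1 for plasmacytoid dendritic cell, 2 for macrophage and 2 for tumour epithelium genes. With the replicate block they were 1 for serpins, 0 for death ligands and 2 for tumour epithelium. With DESeq2 they were 1 for storage, 2 for death ligands and 4 for T cell genes, and with edgeR 0 for other proteases and 1 for mast cell genes. A pseudocount of 0.1 gave 0 for other proteases and one of 5 gave 1 for mast cell genes, while B cell genes gave 3 with no filter or a filter on the mean. Without mouse 2 they were 1 for exocytosis, 1 for serpins, 0 for other proteases, death ligands and B cell, and 2 for macrophage genes. Leaving out 1 library gave 1 to 2 for serpins, 0 to 1 for other proteases and NK receptors, 0 to 2 for death ligands, 0 to 1 for transcription factors, plasmacytoid dendritic cell and macrophage genes, 1 to 4 for mast cell and 1 to 2 for tumour epithelium genes. A value of 0 limits a gene to 3 reads in that library.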

Other observations

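Mast cell and basophil genes, which include further granule proteases, moved in both directions. Hdc, the enzyme that makes histamine, averaged 178 ± 144 in lung metastases, against 14.1 ± 18.1 in primary tumours (SD, n = 4 each), with a log2 change of 3.90 (SE 0.676, limma adjusted p = 0.0051). Neutrophils also express Hdc, and it was highest in the lung metastasis of mouse 3, where the neutrophil sum was highest; the part of either cell type was not tested. Cd200r3, a receptor of basophils and mast cells, averaged 3.08 ± 2.22 in lung metastases, against 0.221 ± 0.416 in primary tumours (log2 change 1.64, limma adjusted p = 0.0372), a call lost with the mouse as a block (0.0728), with edgeR (0.136), without mouse 2 (log2 change 1.77, 0.0949), and without the lung metastasis of mouse 1 or 3 or the primary tumour of mouse 1, 2 or 3 (1.33 to 1.58, 0.0516 to 0.106). Tpsab1, a tryptase of connective tissue mast cells, averaged 0.256 ± 0.352 in lung metastases, against 5.14 ± 4.34 in primary tumours (log2 change -2.07, SE 0.483, limma adjusted p = 0.0232), and missed the threshold with edgeR (0.0652) and without the lung metastasis of mouse 1 or the primary tumour of mouse 1 or 4 (log2 change -2.09 to -1.65, adjusted p = 0.0584 to 0.0746). Kit, the stem cell factor receptor of mast cells, averaged 54.6 ± 41.1 in lung metastases, against 15.8 ± 12.1 in primary tumours (log2 change 1.72, limma adjusted p = 0.0874), and was past the threshold without the lung metastasis of mouse 4 (0.0382) or the primary tumour of mouse 2 (0.0351), with DESeq2 (0.0214) and with array weights (0.018). Of 7 tested genes of this list 2 were higher, 1 was lower and 4 were not called, with a median of 0.82. Over all genes tested, 7.18% were higher and 1.96% lower. Cd200r3 passed the filter only through the lung metastases (0.845 at most in primary tumours). Tpsab1 passed it only through the primary tumours (0.747 at most in lung metastases). Both had to differ to be tested, and nothing is read from these counts. The list summed to 116 to 527 in lung metastases, against 15.4 to 77.1 in primary tumours.

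Among 5 tested death ligand and effector cytokine genes, Tnfsf10 was higher, with a median of 0.41 over the list. Over all genes tested, 7.18% were higher. Tnfsf10, which encodes the death ligand TRAIL, averaged 42.0 ± 23.1 in lung metastases, against 13.1 ± 3.26 in primary tumours (SD, n = 4 each), with a log2 change of 1.48 (SE 0.358, limma adjusted p = 0.0272). The call was lost with the mouse as a block (0.0614), without mouse 2 (log2 change 1.71, 0.0647), and without the lung metastasis of mouse 1 or the primary tumour of mouse 1, 3 or 4 (1.37 to 1.59, 0.055 to 0.0843). Ccl5, a chemokine of killer lymphocytes, averaged 10.6 ± 5.54 in lung metastases, against 3.33 ± 1.05 in primary tumours (limma adjusted p = 0.0883, and 0.0089 without the lung metastasis of mouse 4). It was also past the threshold with DESeq2 (adjusted p = 0.00737) and with array weights. Fasl, the other death ligand, was under the filter at 0.840 ± 0.432 in lung metastases, against 0.352 ± 0.660 in primary tumours, and was named after its values were seen.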
